A study of Mus musculus with 163 samples.

Results

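Sstr2, Vegfd, Cntn1, Lrrc26, Pde1c, Mapk10, Coro2a, Abhd12b, Nacad and Ccer2 are 10 of the 55291 genes counted in single hair cells of the mouse cochlea with and without the RNA-binding protein Rbm24. They were chosen for a strong rise in mutant hair cells and for not belonging to the motile cilium, so their ratios between mutants and controls in these cells describe the choice and are given with no test. Hair cells were picked by hand at postnatal day 7 from enzyme-digested cochleae by their Tdtomato fluorescence, and full-length cDNA was made from each cell. Controls carried Atoh1P2A-Tdtomato/+, an allele in which the reporter follows the hair cell transcription factor Atoh1, and gave 43 control outer hair cells (Ctrl OHC in the plots) and 38 control inner hair cells (Ctrl IHC). Mutants carried Atoh1P2A-Cre/P2A-Tdtomato/+ (another label leaves out the last /+) with Rbm24flox/flox, so that Cre was made from the Atoh1 locus, and gave 56 mutant outer hair cells (Exp OHC) and 26 mutant inner hair cells (Exp IHC). Both genotypes shared the Tdtomato allele, while Cre, the change of Atoh1 that carries it and the loss of Rbm24 came together in the mutants and cannot be told apart. No label names the animal of a cell, so each group is 1 sample, cells are not replicates, and no p-value is given.

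Rbm24 binds GU-rich sequences in messenger RNA and acts on splicing and on the stability of transcripts in muscle, heart and hair cells. Outer hair cells amplify sound with the motor protein prestin (Slc26a5), and inner hair cells pass the signal to the auditory nerve. The 10 genes share no pathway. Sstr2 is an inhibitory G-protein-coupled receptor for the peptide somatostatin, Vegfd is a secreted growth factor of lymphatic vessels, Cntn1 is a lipid-anchored adhesion molecule of axons and Lrrc26 is an accessory subunit of the large-conductance potassium channel. Pde1c degrades cyclic nucleotides when calcium and calmodulin are bound and is known from olfactory cilia, and Mapk10 encodes JNK3, the JNK kinase found mainly in neurons. Coro2a is an actin-binding coronin, Abhd12b a hydrolase related to the lipid lipase Abhd12, Nacad a relative of the nascent-chain binding protein Naca, and Ccer2 a coiled-coil glutamate-rich protein of little-known function.

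Levels are counts per 1000000 (CPM), taken from the counts of a group summed over its cells unless a cell is named. A cell held between 5.47e+06 and 1.81e+07 counts, and mutant cells were the deeper ones, with medians of 12763907 (OHCs) and 14186061 (IHCs) against 9088352 and 8673120 in controls. Rbm24 itself was at 315 CPM in control OHCs against 0.212 in mutant OHCs, and at 431 in control IHCs against 1.51 in mutant IHCs, so the targeted gene went with the labels. The hair cell list (8 genes, among them Myo7a and Pou4f3) summed to medians of 6084 CPM per cell in control and 5517 in mutant OHCs, and of 9579 and 8032 in IHCs. Of the 8 genes of the outer hair cell list, 5 were at least 4-fold lower in mutant OHCs, Slc26a5 (376 against 27.5 CPM) among them, so the mutant OHCs are named by their label. The supporting cell list (12 genes) had medians of 8.58 to 23.8 CPM per cell, with highest cells of 1685 and 2125 in control OHCs and IHCs. Glial, mesenchymal, erythroid, immune and endothelial lists had medians of at most 0.257 CPM per cell in every group. Cells with Y-linked transcripts and no Xist were 74.4% of the OHCs and 68.4% of the IHCs among controls, but 28.6% and 26.9% among mutants, so the mix of sexes went with genotype. Control OHCs number 1 and 11 stood apart from the others, with 0.156 and 5.35 CPM of Slc26a5 against a median of 346 in the remaining 41, and results that rest on them are also given without them.

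The start regions of the 10 genes, each higher in mutant OHCs as a group, were read to see whether they share letters. RefSeq gave 16 windows for them, each from 250 bases before to 50 after a start, on GRCm38.p6. The cAMP response element TGACGTCA, searched on both strands after the windows had been read, was found in 3 of the 10 genes (Ccer2, Mapk10 and Sstr2), 103, 29 and 58 bases before the start, against 1.79% of all 32851 windows and 2.03% of all 27025 genes. The first Mapk10 window also held a full X-box, the motif bound by the RFX factors of cilium genes. Its first base lay 6 bases before the start, so that the X-box ran across the start. The X-box was likewise searched after reading, and 0.149% of all windows hold it. Coro2a held 5 GC boxes (GGGCGG), a motif of 35.7% of all windows, while Sstr2 held 2 and Abhd12b and Lrrc26 1 each. These windows are shown because they hold these matches. Capitals mark the cAMP response element, the X-box and the GC box, and the windows run 5′ to 3′ on the strand of the gene.
Ccer2, chr7:28755924-28756223, plus strand: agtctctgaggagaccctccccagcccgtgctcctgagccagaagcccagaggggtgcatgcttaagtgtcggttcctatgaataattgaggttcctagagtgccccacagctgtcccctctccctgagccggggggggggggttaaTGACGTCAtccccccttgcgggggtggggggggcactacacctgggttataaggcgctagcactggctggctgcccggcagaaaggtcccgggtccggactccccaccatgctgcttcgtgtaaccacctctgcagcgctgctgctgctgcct
Mapk10, chr5:103211285-103211584, minus strand: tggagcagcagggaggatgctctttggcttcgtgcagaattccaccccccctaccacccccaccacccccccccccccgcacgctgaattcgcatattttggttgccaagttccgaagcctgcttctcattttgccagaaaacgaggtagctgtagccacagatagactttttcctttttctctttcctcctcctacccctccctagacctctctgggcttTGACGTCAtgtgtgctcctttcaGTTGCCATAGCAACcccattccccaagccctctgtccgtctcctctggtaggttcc
Sstr2, chr11:113619077-113619376, plus strand: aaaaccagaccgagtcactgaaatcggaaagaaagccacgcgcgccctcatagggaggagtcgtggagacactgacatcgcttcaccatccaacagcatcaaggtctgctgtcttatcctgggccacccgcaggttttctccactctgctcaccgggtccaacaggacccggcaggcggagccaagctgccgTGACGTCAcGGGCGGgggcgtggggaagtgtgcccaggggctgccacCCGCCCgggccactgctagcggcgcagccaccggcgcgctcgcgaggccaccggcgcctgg
Coro2a, chr4:46601880-46602179, minus strand: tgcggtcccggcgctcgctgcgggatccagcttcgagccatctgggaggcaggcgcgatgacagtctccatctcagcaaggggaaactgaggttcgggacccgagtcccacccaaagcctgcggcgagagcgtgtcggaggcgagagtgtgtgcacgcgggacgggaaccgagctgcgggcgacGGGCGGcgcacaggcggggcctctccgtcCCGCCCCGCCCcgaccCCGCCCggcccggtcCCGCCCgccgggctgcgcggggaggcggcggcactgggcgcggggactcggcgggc

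Other motifs were shared by few of the genes. GTTGCC, 1 arm of the X-box, found in 12.5% of all windows, was in windows of Mapk10 and Nacad, where the one next to the Mapk10 start is part of its X-box. The E-box CAGCTG (16.3% of windows) was in windows of Ccer2 and Pde1c. CAGCACC, the left arm of the neuronal silencer RE1 (7.14% of windows), was in windows of Coro2a and Pde1c, and GGACAG, its right arm (22.2%), in windows of Ccer2, Mapk10, Cntn1, Nacad and Lrrc26. In Ccer2 the E-box and the right arm of RE1 overlapped, starting 142 and 139 bases before the start. A match is a run of letters only, and binding was not measured. In the longest coding transcript of each gene, GTGTG, the core that Rbm24 binds, occurred 1.79 times per kb (median of the 10 genes), against a median of 1.49 and quartiles of 0.898 and 2.27 over 12050 coding genes. Sstr2 stood highest with 11 matches in 2143 bases (5.13 per kb, more than 96.5% of those genes), and Lrrc26 had 0 in 1190 bases.

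In mutant OHCs all 10 genes were at least 4-fold above control OHCs, with a median log2 ratio of 5.64. One of them, Lrrc26, was under 1 CPM in the mean of both groups. Over all 14588 genes at or above that level, 8.47% were at least 4-fold higher, 5.50% at least 4-fold lower, and the median log2 ratio was 0.06. The choice of the genes fixes this count, and nothing is read from it. In mutant IHCs 8 of the 10 were at least 4-fold above control IHCs, with a median of 3.57, where 8.81% of 14557 genes were (5.32% were lower) and the median of all was 0.11. The other 2 were Mapk10, with a log2 ratio of 1.79, and Abhd12b, with -0.27. These values are differences between sums of cells, and their 95% intervals (exact binomial) cover counting error only, since reads carried no molecular identifiers. The groups of cells overlapped in every gene, with some mutant cells at or near the level of the controls. All 10 are protein-coding genes, and their whole spans are given below on GRCm38.

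**Figure D1:**
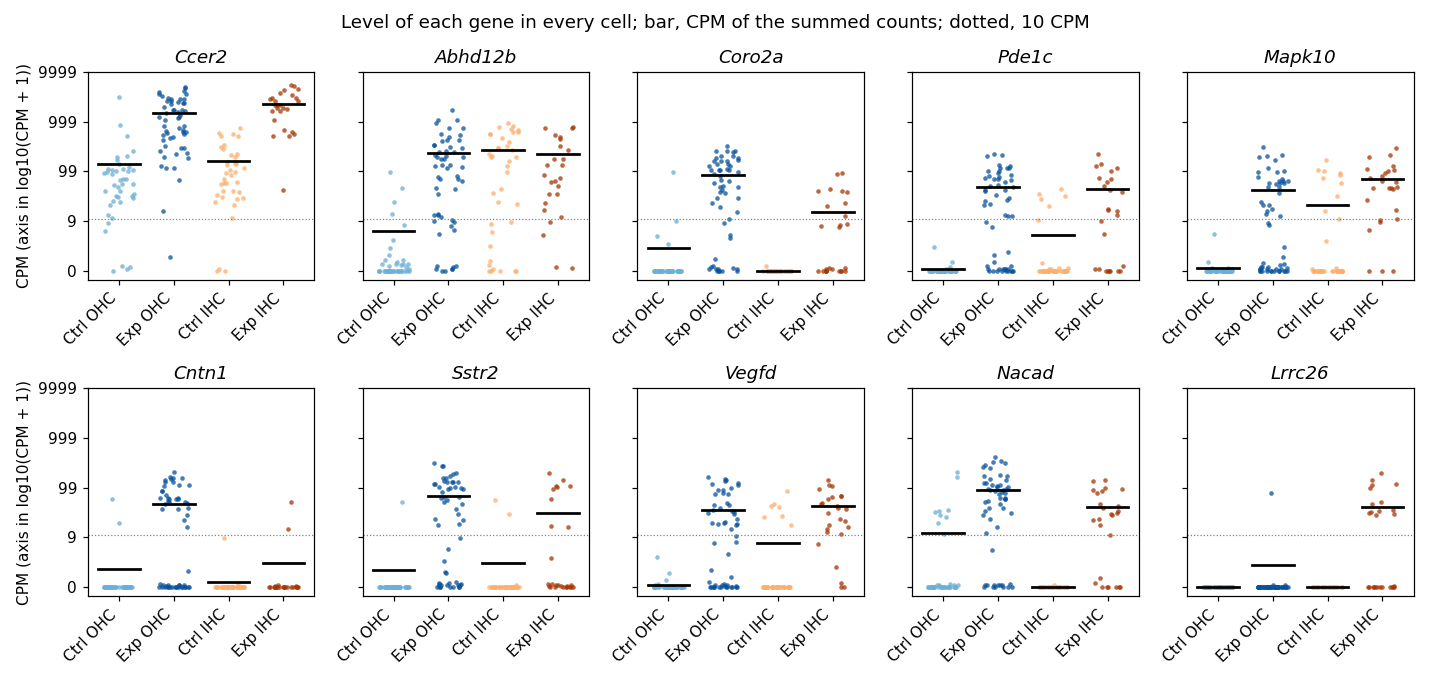
Level of each gene (vertical axis, log10(CPM + 1)) in each of the 163 cells (points) of the 4 groups, with the level of the summed counts as a bar and 10 CPM as a dotted line. Most genes were at or near 0 in nearly all control cells and spread over a broad range in mutant cells; Abhd12b was also high in control IHCs, and Lrrc26 was high in mutant IHCs and in 1 mutant OHC.

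Among the receptor, ligand, adhesion and channel genes, Sstr2 (ENSMUSG00000047904.6, chr11:113619342-113626028, plus strand) was at 0 counts in 42 of 43 control OHCs, and cell 11 alone held all 487 control counts (49.2 CPM in that cell). In mutant OHCs it ran from 0 through a median of 40.7 to 309.7 CPM, and 34 of 56 cells (exact binomial interval of the share 46.8% to 73.5%) reached 10 CPM. Intervals on shares of cells cover the counting of these cells only, not the spread between animals. Above the highest control OHC lay 27 of the 56 cells, so the groups overlapped. The summed level was 1.22 CPM in control OHCs and 67.8 in mutant OHCs, a log2 ratio of 5.80 (5.67 to 5.93). Without control OHCs 1 and 11 no control count was left, and the log2 ratio was at least 13.08. In control IHCs 35 of 38 cells were at 0 and the highest held 55.5 CPM, while mutant IHCs had a median of 0.0983 and a highest value of 191. The summed levels of 1.98 and 29.4 CPM gave a log2 ratio of 3.89 (3.78 to 4.00), and control IHC number 11 held 68.6% of the control counts. Its ligands and the other receptors were not seen with it: of Sst, Cort, Sstr1, Sstr3, Sstr4 and Sstr5, 0 of 6 passed 1 CPM in either genotype comparison, and Sst was at 0 counts in all groups but mutant OHCs (0.00139 CPM).

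Vegfd (ENSMUSG00000031380.10, chrX:164373378-164402650, plus strand) was at 0 in 38 of 43 control OHCs, with a highest value of 3.03 CPM in cell 11, which held 73.2% of the counts. The mutant OHCs spread from 0 through a median of 16.9 to 159 CPM, with 30 of 56 at 10 CPM or more and 34 above every control OHC. None of the 43 control OHCs reached 10 CPM, so the share could be as high as 6.98% by a limit of 3 cells and 8.22% by the exact binomial interval. The summed level was 0.103 against 33.9 CPM, a log2 ratio of 8.37 (7.93 to 8.85), or 10.35 without control OHCs 1 and 11. Control IHCs held more, from 0 through a median of 0 to 82.3 CPM, and 7 of 38 reached 10 CPM. In mutant IHCs the median was 32.6 and the highest value 139 CPM, with 21 of 26 at 10 CPM or more, so that here the gene was in most cells. Group sums of 6.83 and 40.8 CPM gave a log2 ratio of 2.58 (2.52 to 2.64). The receptor of VEGF-D, Flt4, was at 3.55 CPM in control OHCs, 0.00555 in mutant OHCs, 0 in control IHCs and 0.00822 in mutant IHCs. Of the 9 other VEGF ligands and receptors, 5 passed 1 CPM in OHCs, where Pgf, placental growth factor, was higher (30.8 against 131 CPM, log2 ratio 2.09) and Flt4 lower. In IHCs 4 passed and 0 were 4-fold apart. The closest ligand, Vegfc, was at 0 counts in every group.

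Cntn1 (ENSMUSG00000055022.14, chr15:92051165-92341967, plus strand) was seen mainly in the mutant outer hair cells. In control OHCs 41 of 43 cells were at 0, and cell 1, with 57.8 CPM, held 70.9% of the counts. Values in mutant OHCs went from 0 through a median of 31.3 to 202 CPM, and 31 of 56 reached 10 CPM. Sums of 1.31 and 46.1 CPM gave a log2 ratio of 5.14 (5.01 to 5.26), or 6.86 without control OHCs 1 and 11. In mutant IHCs 21 of 26 cells were at 0, 2 reached 10 CPM and cell 11 of that group, with 50.3 CPM, held 70.0% of the counts. The IHC ratio, 0.241 against 1.97 CPM (log2 3.03, 2.70 to 3.37), therefore rests on a few cells. Its axonal partner Cntnap1 was at 0.613 and 1.35 CPM in control and mutant OHCs, and the partner Nfasc at 17.9 and 58.1. Of the 12 other contactins and partners 7 passed 1 CPM in OHCs and 1 was 4-fold higher (Cntn4, 0 against 2.16 CPM), and in IHCs 6 passed and 2 were higher (Cntn2, 0.00287 against 5.26, and Cntn3, 1.21 against 8.34).

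Lrrc26 (ENSMUSG00000026961.6, chr2:25289915-25291180, plus strand) was seen mainly in the mutant inner hair cells. It was at 0 counts in all 43 control OHCs and all 38 control IHCs, sums that allow up to 0.00751 and 0.00861 CPM. In mutant OHCs 53 of 56 cells were at 0 and cell 23, with 78.4 CPM, held 99.8% of the 1269 counts. Mutant IHCs ran from 0 through a median of 13.5 to 198 CPM, and 13 of 26 reached 10 CPM. The summed level was 1.76 CPM in mutant OHCs and 40.4 in mutant IHCs, at least 235-fold and at least 4690-fold above the floor of 3 counts in the controls. The OHC bound is that of 1 cell, and without it both sums were at or under the floor. The pore-forming channel gene Kcnma1 was lower in mutants, at 25.8 against 11.5 CPM in OHCs and 72.2 against 28.0 in IHCs, under the 4-fold limit. The beta subunit gene Kcnmb2 was at 58.7 and 198 CPM in control and mutant OHCs and at 147 and 272 in IHCs. Of the 8 other channel subunits, 0 were 4-fold apart in either cell type among the 3 (OHCs) and 4 (IHCs) that passed 1 CPM.

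Of the signalling enzymes, Pde1c (ENSMUSG00000004347.17, chr6:56069804-56569103, minus strand) was at 0 in 38 of 43 control OHCs, and the highest, cell 4, held 1.98 CPM and 65.4% of the 26 counts. Mutant OHCs ran from 0 through a median of 25.0 to 222 CPM, and 36 of 56 lay above every control OHC. The summed levels of 0.0651 and 46.3 CPM gave a log2 ratio of 9.47 (8.92 to 10.09), the highest of the 10 genes in OHCs when all cells were used. In control IHCs 5 of 38 cells reached 10 CPM and the highest held 43.0, and in mutant IHCs the median was 15.0 and the highest 219 CPM. The IHC sums were 4.28 and 42.9 CPM, a log2 ratio of 3.33 (3.25 to 3.41), so that the mutant sums lay close together and the control sums far apart. The paralogs were low, and each went the other way in the cell type given here. Pde1a was at 3.53 CPM in control OHCs and 0 in mutant OHCs. Pde1b was at 6.42 in control IHCs and 0.00548 in mutant IHCs. In the other cell type neither was among the genes counted as 4-fold lower. Of the 14 other phosphodiesterases on the list, 10 passed in OHCs with 1 higher (Pde7b, 0.350 against 1.73 CPM) and 2 lower (Pde1a and the cAMP-specific Pde4a, 20.0 against 3.52). In IHCs 9 passed, with Pde7b higher (0 against 6.28 CPM) and Pde1b lower.

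Mapk10 (ENSMUSG00000046709.18, chr5:102907948-103211334, minus strand) was at 0 in 35 of 43 control OHCs, with a highest value of 4.48 CPM in cell 18, which held 79.2% of the counts. The mutant OHCs spread from 0 through a median of 10.0 to 314 CPM, 28 of 56 reached 10 CPM and 30 lay above every control OHC. Group sums of 0.120 and 41.4 CPM gave a log2 ratio of 8.43 (8.02 to 8.87), or 10.49 without the highest cell of each group. Control IHCs already held it, with 9 of 38 cells at 10 CPM or more, a highest value of 171 and a summed level of 20.1 CPM. In mutant IHCs the median was 46.3, the highest value 299.7 and the summed level 69.7 CPM, a log2 ratio of 1.79 (1.75 to 1.83), under the 4-fold limit. Here 3 of 26 mutant IHCs lay above the highest control IHC. The other JNK kinases were within 4-fold: Mapk8 was at 24.5 and 25.4 CPM in control and mutant OHCs and Mapk9 at 26.3 and 17.8. All 15 other genes of the JNK cascade passed 1 CPM, and 1 was 4-fold apart in OHCs (Map3k9, 1.39 against 5.90 CPM) and 0 in IHCs.

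Coro2a (ENSMUSG00000028337.14, chr4:46536937-46602202, minus strand), the coronin, was at 0 in 39 of 43 control OHCs, and cells 1 and 11 held 81.7% and 11.7% of the counts, with 94.6 and 8.78 CPM. Values in mutant OHCs went from 0 through a median of 52.8 to 321 CPM, with 40 of 56 at 10 CPM or more and 23 above every control OHC. Sums of 1.86 and 83.6 CPM gave a log2 ratio of 5.49 (5.39 to 5.60), and of 9.35 without control OHCs 1 and 11. Control IHCs held 2 counts in 1 cell, and mutant IHCs ran from 0 through a median of 3.32 to 92.7 CPM. Their summed levels of 0.00574 and 14.1 CPM gave a log2 ratio of 11.26 with a wide interval of 9.41 to 14.31. The mutant level was thus lower in IHCs than in OHCs although the ratio was larger. On the other strand Gm16731 shares 329 exon bases with Coro2a and was at 0.258 CPM or less in every group. The closest paralog, Coro2b, was at 13.7 and 54.0 CPM in control and mutant OHCs (log2 ratio 1.98) and at 7.55 and 19.1 in IHCs. Of the 6 other coronins, 5 passed in OHCs with 1 lower (Coro6, 4.95 against 1.13 CPM), and all 6 passed in IHCs with 1 higher (Coro1a, 0.0258 against 5.03).

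Abhd12b (ENSMUSG00000090121.10, chr12:70154142-70183887, plus strand) was the only gene of the 10 that was lower in mutant IHCs than in control IHCs. Control OHCs ran from 0 through a median of 0 to 96.3 CPM in cell 39, which held 56.8% of the counts, and 4 of 43 reached 10 CPM. Mutant OHCs ran from 0 through a median of 125 to 1719 CPM, 42 of 56 reached 10 CPM and 30 lay above every control OHC. The summed levels of 5.25 and 236 CPM gave a log2 ratio of 5.49 (5.42 to 5.55), or 6.49 without the highest cell of each group. Control IHCs held as much as the mutants, from 0 through a median of 175 to 946 CPM with 26 of 38 at 10 CPM or more. Mutant IHCs ran from 0.135 through a median of 79.0 to 787 CPM, and the summed levels of 262 and 217 gave a log2 ratio of -0.27 (-0.28 to -0.26). The ranges between quartiles overlapped in the 3 high groups, with quartiles of 10.8 and 312 CPM in mutant OHCs, 5.58 and 446 in control IHCs and 25.2 and 304 in mutant IHCs. In IHCs the sign depended on the cells used: it was -1.22 in cells with Y-linked transcripts (7 mutant, 26 control) and 0.63 in cells with Xist (19 and 12). The paralog Abhd12 was at 69.4, 95.0, 127 and 79.8 CPM in the 4 groups. Of the 18 other genes of the family, 17 passed in each cell type and 1 was higher in each, Abhd3 in OHCs (2.01 against 16.2 CPM) and Abhd14b in IHCs (1.09 against 16.6).

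Nacad (ENSMUSG00000041073.10, chr11:6597823-6606053, minus strand) was in some control OHCs and nearly absent from control IHCs. In control OHCs 29 of 43 cells were at 0, 9 reached 10 CPM, and cells 11 and 1 held 43.7% and 22.6% of the counts, with 201 and 161 CPM. The mutant OHCs spread from 0 through a median of 61.3 to 405 CPM, with 42 of 56 at 10 CPM or more. Group sums of 11.4 and 87.4 CPM gave a log2 ratio of 2.94 (2.89 to 2.98), which was 4.45 without control OHCs 1 and 11. Among cells with Xist alone (37 mutant, 11 control) it was 1.18, under the 4-fold limit, where both of those control cells are. Control IHCs held 1 count, and mutant IHCs ran from 0 through a median of 27.6 to 138 CPM with 18 of 26 at 10 CPM or more. The sums of 0.00287 and 39.7 CPM gave a log2 ratio of 13.76, with an interval of 11.28 to 19.06. The relatives Naca and Btf3, the subunits of the nascent polypeptide-associated complex, were at 313 and 471, and 218 and 298 CPM in control and mutant OHCs, and 0 of the 3 other genes of that list were 4-fold apart in either cell type.

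Ccer2 was the highest of the 10 genes in every mutant group and the only one present in most cells of both control groups. Control OHCs ran from 0 through a median of 54.0 to 3140 CPM, with 37 of 43 at 10 CPM or more, and the highest value was that of cell 1, which held 35.6% of the counts. Values in mutant OHCs went from 0.930 through a median of 1136 to 4880 CPM, with 55 of 56 at 10 CPM or more. Sums of 142 and 1490 CPM gave a log2 ratio of 3.39 (3.38 to 3.40), or 4.18 without control OHCs 1 and 11. Control IHCs ran from 0 through a median of 86.3 to 734 CPM and mutant IHCs from 41.5 through 2139 to 5471, and 20 of 26 mutant IHCs lay above every control IHC. The sums of 160.3 and 2263 CPM gave a log2 ratio of 3.82 (3.81 to 3.83). The gene (ENSMUSG00000096257.2, chr7:28756174-28758968, plus strand) shares 314 exon bases with Nfkbib on the other strand. Whether reads were assigned by strand is not given in the sources used here, and Nfkbib was at 40.2, 62.3, 55.0 and 76.7 CPM in the 4 groups. The related Ccer1 was at 0 counts in all groups but mutant OHCs (0.00139 CPM).

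**Figure D2:**
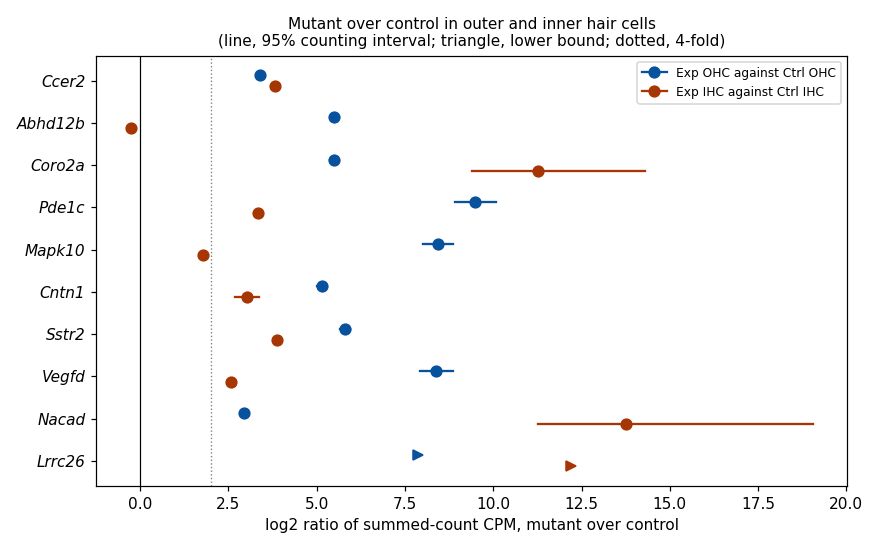
Log2 ratio of summed-count CPM, mutant over control, of each gene in outer (blue) and inner (brown) hair cells, with 95% counting intervals as lines, lower bounds as triangles and the 4-fold limit dotted. Coro2a, Nacad and Lrrc26 had the larger ratio in IHCs (11.26, 13.76 and at least 12.20), and Abhd12b, Pde1c, Mapk10 and Vegfd in OHCs. By less, Cntn1 (5.14 in OHCs, 3.03 in IHCs) and Sstr2 (5.80 and 3.89) were also larger in OHCs. Ccer2 (3.39 and 3.82) was larger in IHCs.

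The order of the genes by level per length of exon, in CPM per kb, was alike at the top in both mutant groups. In mutant OHCs Ccer2 (1413 CPM per kb) was followed by Abhd12b (59.8), Sstr2 (31.7), Nacad (17.9), Vegfd (14.1) and Coro2a (12.9). Below these came Cntn1 (4.88), Mapk10 (3.72), Pde1c (2.31) and Lrrc26 (1.48). In mutant IHCs Ccer2 (2147) and Abhd12b (55.1) again came first, Lrrc26 (33.9) was next and Cntn1 (0.208) was last. Sums of exon length include exons that a hair cell may not use, so neighbours in this order are not told apart.

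The level in the controls of the other cell type split the genes. In control OHCs against control IHCs 4 genes were at least 4-fold lower (Abhd12b, Pde1c, Mapk10 and Vegfd, with log2 ratios of -5.64, -6.04, -7.39 and -6.06), where 6.09% of 14445 genes were lower. Nacad was higher with 11.96 (9.48 to 17.26), where 6.92% of genes were. A choice for a strong rise in mutants favours genes that are low in controls, so nothing is read from these counts. Coro2a (8.34, 6.48 to 11.39) and Cntn1 (2.44, 2.11 to 2.79) were also higher but under 1 CPM in the mean of both groups. Without control OHCs 1 and 11 their control OHC levels were 0.128 and 0.397 CPM, against 0.00574 and 0.241 in control IHCs, and that of Nacad was 4.01. Ccer2 (-0.18) and Sstr2 (-0.70) were within 4-fold, although Sstr2 was at -6.37 without the highest cell of each group, and Lrrc26 had no counts in either. The 4 genes lower in control OHCs than in control IHCs had summed levels in mutant OHCs of 236, 46.3, 41.4 and 33.9 CPM. In control IHCs they were at 262, 4.28, 20.1 and 6.83 CPM. The inner hair cell list as a whole was not higher in mutant OHCs: of its 7 genes 4 passed 1 CPM, 0 were 4-fold higher and 2 lower, and its sum was 199 CPM in control OHCs and 77.2 in mutant OHCs. Its genes Dnajc5b and Fgf8, too low for that count, were at 0.0476 and 0.205 CPM in control OHCs and at 1.87 and 1.38 in mutant OHCs.

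The log2 ratio of the genotypes in OHCs less the IHC one passed 4-fold upward for Abhd12b (5.76), Pde1c (6.15), Mapk10 (6.64), Vegfd (5.79) and Cntn1 (2.11), and downward for Coro2a (-5.77), Nacad (-10.82) and Lrrc26 (-4.32, a difference of bounds, with both control sums set to 3 counts). Over all 15449 genes, 10.6% passed upward and 9.86% downward. The difference is made of the genotype ratios for which the genes were chosen, so nothing is read from these counts. Ccer2 (-0.43) and Sstr2 (1.91) were within 4-fold, the latter at 7.75 without the highest cell of each group. Several of these differences rest on few counts or cells. That of Cntn1 was -0.89 without the highest cell of each group and -2.50 among cells with Xist, and that of Coro2a was -1.91 without control OHCs 1 and 11 and 0.48 among cells low in the transcript Gm15772 (under 40 CPM). With 1 sample a group the difference between cell types was not tested.

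Counted per cell, mutants held more of the genes than controls, which the choice of the genes fixes, and nothing is read from it. At 10 CPM or more, control OHCs held from 0 through a median of 1 to 4 of the 10 genes, and control IHCs from 0 through 2 to 5. Mutant OHCs held from 2 through 6 to 9, and mutant IHCs from 3 through 6 to 8. At least 5 genes were held by 0 of 43 control OHCs (a share of up to 8.22%), 45 of 56 mutant OHCs (80.4%, 67.6% to 89.8%), 1 of 38 control IHCs and 23 of 26 mutant IHCs (88.5%, 69.8% to 97.6%). Control OHCs 1 and 11 held 4 and 3 genes. No cell held all 10, and 3 mutant OHCs held 9. The count per cell had a Spearman rho of 0.03 with the total counts of the 56 mutant OHCs and of 0.41 with the genes detected, and thinning each cell to 5000000 counts left all 4 medians as they were.

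**Figure D3:**
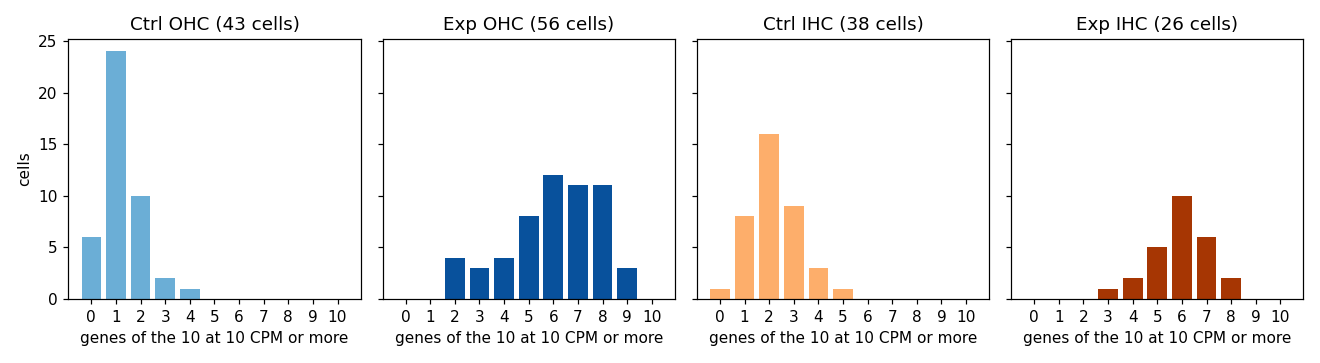
Number of cells (vertical axis) by how many of the 10 genes they held at 10 CPM or more (horizontal axis), for the 4 groups. Control cells held 5 or fewer, while mutant cells centred on 6 and each held 2 or more.

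Within the mutant OHCs the genes did not go up and down as 1 set. Over the 45 pairs, Spearman's rho across 56 cells had a median of 0.13 and ran from -0.50 to 0.70, with 10 pairs over 0.3 and 13 below 0. Ccer2 was most alike to Coro2a (0.70), Cntn1 (0.60) and Pde1c (0.58), and Nacad went with Pde1c (0.43) and Coro2a (0.41). Sstr2, Vegfd and Abhd12b followed Ccer2 little, with 0.24, 0.15 and 0.04. Mapk10 had negative values with all 9 others, the lowest with Cntn1 (-0.50): of 28 cells with Mapk10 at 10 CPM or more 10 also held Cntn1, and 21 of the other 28 held it. Among the 16 mutant OHCs with Y-linked transcripts, Mapk10 was at 0.17 with Pde1c and 0.01 with Vegfd, and below 0 with the rest. In the 26 mutant IHCs the median over pairs was 0.01, from -0.48 to 0.56. There Mapk10 was above 0 with Sstr2 and Nacad (both 0.23), Cntn1 (0.11), Lrrc26 (0.07), Ccer2 (0.06), Abhd12b and Coro2a (both 0.03). With Vegfd (-0.31) and Pde1c (-0.01) Mapk10 was below 0. Cells share animals, library preparation and depth, and in genes with many zeros a weak correlation is no finding.

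Ccer2 was higher in cells with less Tmc1 and with more of the motile cilium genes in each of the 4 groups. Against Tmc1, the mechanotransduction channel gene, its rho was -0.82 over 56 mutant OHCs, -0.62 over 43 control OHCs, -0.80 over 26 mutant IHCs and -0.40 over 38 control IHCs. Against the summed motile cilium list (28 genes, such as Foxj1 and the axonemal dyneins) it was 0.85, 0.60, 0.74 and 0.60 in the same order. Without control OHCs 1 and 11 the values in the remaining 41 control OHCs were -0.57 and 0.54. Over the 8 subsets of cells with Y-linked transcripts or with Xist, of 7 to 37 cells each, rho ran from -0.90 to -0.32 against Tmc1 and from 0.38 to 0.93 against the cilium list, and its sign held in all 8. The subsets are parts of the same cells and give no separate support. Tmc1 and the cilium list had the largest values in size among the measures compared with Ccer2 in mutant OHCs. Tmc1 itself ran from 0 through a median of 219 to 1411 CPM in mutant OHCs and from 16.2 through 557 to 1264 in control OHCs. In the order mutant OHCs, control OHCs, mutant IHCs, control IHCs, Ccer2 had a rho of 0.04, -0.22, -0.21 and -0.09 with total counts. With genes detected it had 0.21, 0.09, 0.49 and 0.41, and with the mitochondrial share of counts -0.38, -0.18, -0.51 and -0.05. The part of these measures in the relation to Tmc1 and the cilium list was not tested. In mutant OHCs it also went against the outer hair cell list (-0.74) and the outer hair cell factor Ikzf2 (-0.71), and with Igll1 (0.72), an immunoglobulin light chain gene at 0 counts in both control groups and at 283 CPM in mutant OHCs and 469 in mutant IHCs. With the neuron list it had 0.55, and with the neurogenic and neuroendocrine list (11 genes, such as Insm1 and Neurod6) 0.70. In the same order these lists gave 0.37 and 0.46 in control OHCs. They gave 0.41 and 0.60 in mutant IHCs, and 0.24 and 0.32 in control IHCs. In control OHCs the outer hair cell list and Ikzf2 gave -0.64 and -0.65, but in mutant IHCs -0.12 and 0.09 and in control IHCs 0.35 and 0.03.

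Coro2a had the same signs at smaller values, with -0.62 against Tmc1 and 0.62 against the cilium list in mutant OHCs and -0.58 and 0.56 in mutant IHCs. Pde1c (-0.56 and 0.49) and Cntn1 (-0.55 and 0.40) had them in mutant OHCs, but in mutant IHCs Pde1c gave 0.25 and -0.37. In mutant OHCs the values were weak for Mapk10 (0.27 and -0.14), Sstr2 (-0.20 and 0.24), Vegfd (-0.09 and 0.04) and Abhd12b (-0.04 and 0.11). The cilium list itself was higher in mutants, with 14 of the 26 genes that passed 1 CPM at least 4-fold higher in OHCs and 18 of 27 in IHCs, and median log2 ratios of 2.13 and 2.51. Of all genes 8.47% were higher in OHCs and 8.81% in IHCs. The gene lists were chosen with earlier results of these data known, so their counts are a description. The neuron list had 5 of 9 genes higher in OHCs (Gap43, Thy1, Ntrk2, Stmn2 and Nefm) and 1 lower, with a median log2 ratio of 2.17. Of all genes 8.47% were higher and 5.50% lower. Gap43 and Thy1 were at 0 counts in control OHCs, so their ratios are lower bounds. In IHCs 1 of 6 was higher (Gap43) and 1 lower, with a median of 0.73, where 8.81% of all genes were higher and 5.32% lower. The summed level of the list was 218 CPM in control and 765 in mutant OHCs. Its part in the levels of Cntn1 and Mapk10, genes that neurons also express, was not tested. Of the 12 genes of the list, 3 were at 0 counts in control OHCs, 1 in mutant OHCs, 1 in control IHCs and 3 in mutant IHCs. The sum of the list ran from 0 to 1015 CPM per cell in control OHCs, 251 to 1331 in mutant OHCs, 199.7 to 957 in control IHCs and 451 to 2452 in mutant IHCs.

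**Figure D4:**
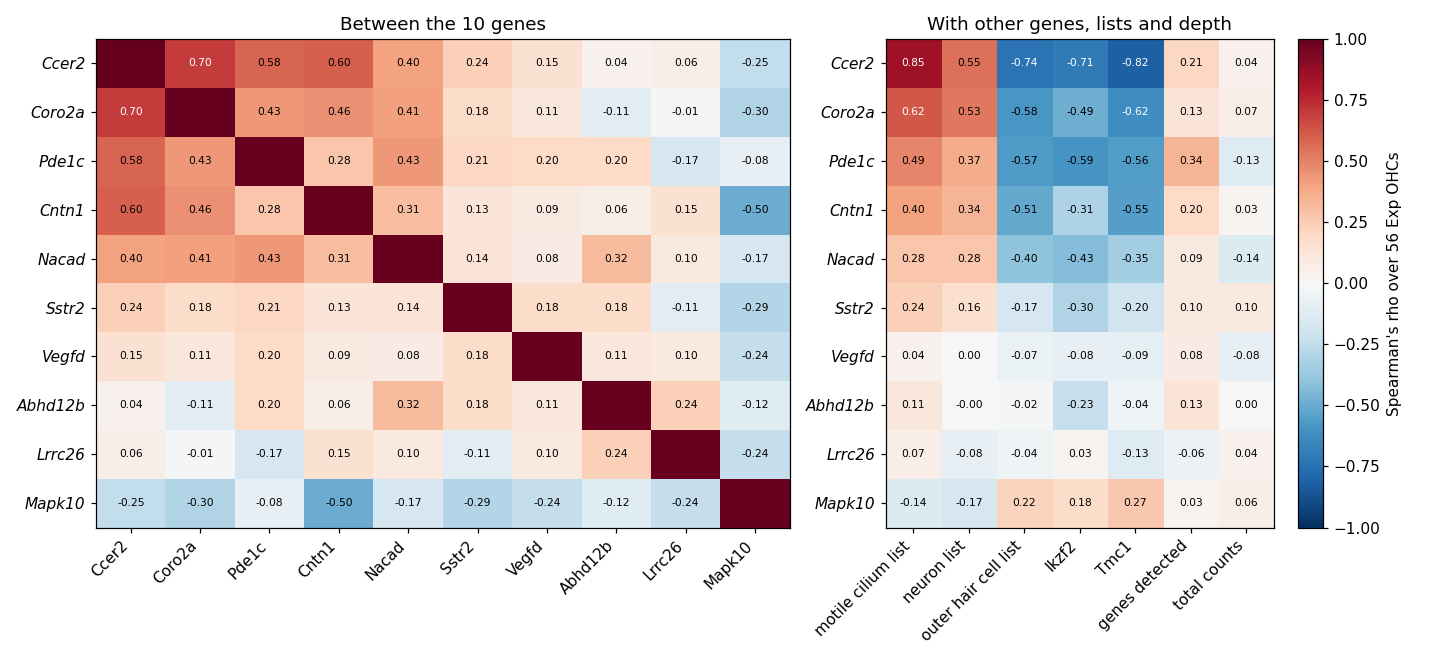
Spearman's rho over the 56 mutant OHCs between the 10 genes (left) and of each with gene lists, single genes and depth (right), from -1 (blue) to 1 (red). Ccer2, Coro2a, Pde1c and Cntn1 were positive with each other and with the motile cilium list and negative with Tmc1, and the values of Mapk10 with the 9 other genes were all below 0.

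**Figure D5:**
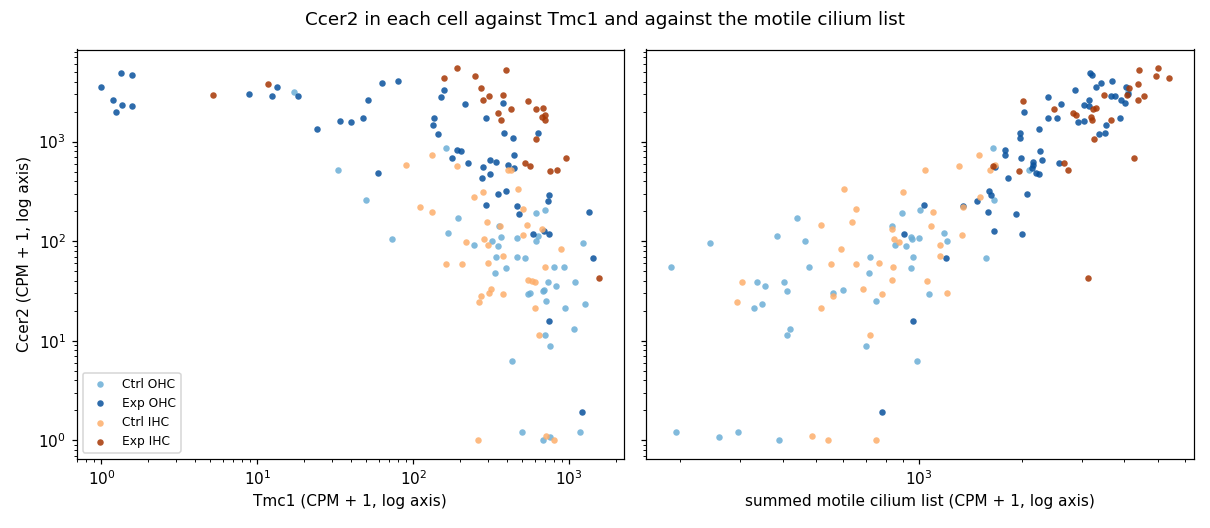
Ccer2 in each of the 163 cells (points, coloured by group) against Tmc1 (left) and the summed motile cilium list (right), all as CPM + 1 on log axes. Ccer2 was lower in cells with more Tmc1 and higher in cells with more of the cilium list within each group, with control OHC number 1 (3140 CPM) among the mutant cells.

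Over 9236 genes at 10 CPM or more in at least 20% of the mutant OHCs, the 3 most alike to Ccer2 by Spearman's rho were Parp1 (0.89), Mgst3 (0.86) and Laptm5 (0.84). Parp1, a DNA damage sensor, was at 97.3 CPM in control and 595 in mutant OHCs. Coro2a was most alike to the glycolytic enzyme gene Gpi1 (0.74), the calcium sensor gene Syt7 (0.73) and Ccer2. Cntn1 was most alike to Laptm5 (0.64), the cilium gene Drc3 (0.60) and Ccer2, and Pde1c to R3hdml (0.64), Thsd7b (0.64) and Tnc (0.63). Mapk10 was most alike to Otof (0.49), which encodes otoferlin of the hair cell synapse, and then to Dock4 and Car2 (both 0.45). Abhd12b led with Fer1l6 (0.57), Nbas (0.55) and Pkhd1l1 (0.55), and Nacad with Ndc1 (0.59), Ezr (0.58) and Mogat1 (0.56). The first for Sstr2 was Rac3 (0.63) and for Vegfd Nup35 (0.51). Lrrc26, present in 1 mutant OHC, was not ranked in a way that can be read. These are ranks over cells of 1 sample and give no test.

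Control OHCs 1 and 11 carried several of these genes in animals with Rbm24. Cell 1 held 3140 CPM of Ccer2, 94.6 of Coro2a, 57.8 of Cntn1 and 161 of Nacad, and 0 of Abhd12b, Pde1c, Mapk10, Sstr2 and Lrrc26. Cell 11 held 513 of Ccer2, 201 of Nacad, 49.2 of Sstr2 and 8.78 of Coro2a. Their Rbm24 levels of 208 and 536 CPM were within the range of the other controls, whose median was 262. They had the lowest sums of the outer hair cell list (752 and 1914 CPM, median of the group 8416), the lowest Tmc1 (16.2 and 32.1) and the highest sums of the motile cilium list (4090 and 2096, median 716). Both carried Xist, cell 11 had 715 CPM of the neuron list (median 183) against 155 in cell 1, and Myo7a was at 274 and 547 CPM. The supporting cell list summed to 84.9 and 0 CPM in them. The 2 cells were singled out by Slc26a5, and why they stand apart was not tested.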

How the data were processed

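Single hair cells were measured by full-length RNA sequencing (Smart-Seq HT). The files hold, as deposited, whole-number read counts for each gene and cell, which the authors made with HISAT2 2.2.1, SAMtools and featureCounts 2.0.1 on mm10, per the submitters' processing notes. Which annotation was used, whether strand was, and how shared reads were counted is not given in the sources used here, nor is how a picked cell was called IHC or OHC. Of the 55291 rows, 99.5% matched the GENCODE M21 annotation of GRCm38 by ID, which gave symbols and exon lengths. The rest held 0.0128% of counts.

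CPM values are sums of counts over the cells of a group per total of that group. Ratios have exact conditional binomial 95% intervals, levels exact Poisson ones and shares of cells exact binomial (Clopper-Pearson) ones, all for counting error only. A sum of 0 was set to 3 counts per group for a bound. Genes at 1 CPM or more, averaged over the groups compared, entered the counts past 4-fold over all genes and over the lists. The chosen genes were counted at any level. Spearman's rho used log2(CPM + 1). The functions were tested on simulated data. Versions were Python 3.11.15, numpy 2.4.6, pandas 2.3.3, scipy 1.17.1 and matplotlib 3.10.9, with edgeR 4.0.16 for TMM factors only.

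The 10 genes and the gene lists were chosen with earlier results of these data known. All 10 genes are named. Other genes of a list are named at 10 CPM or more and 4-fold, or as a direct partner, as are the 3 most alike genes over mutant OHCs and overlapping genes. Genes of a list named below 10 CPM, marker genes named beside a list, and Igll1 were chosen after their values were seen.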

Additional observations from a re-analysis of the deposited data

Results flagged for a closer look

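Abhd12b was higher in mutant OHCs, while in IHCs it was within 4-fold and its sign depended on the cells used. Its log2 ratio of mutants over controls was 5.49 in OHCs and -0.27 in IHCs. The difference between the cell types was not tested, since each group is 1 sample. In IHCs the value was -1.22 over cells that held Y-linked transcripts and 0.63 over those that held Xist.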

How the results depend on the processing

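The number of the 10 genes past 4-fold was 9 to 10 in OHCs, 7 to 9 in IHCs, 6 to 8 between controls and 6 to 9 for the difference of ratios (its settings were chosen after seeing the data). These ranges cover TMM factors, totals without mitochondrial genes, cell means, each group less its highest cell and OHC controls at 10 CPM or more of Slc26a5. They also cover either sex marker, Gm15772 below or above 40 CPM, and limits of 2- and 8-fold. The settings without a filter and with a filter of 10 CPM acted on the counts of all genes only. The 10 genes were counted at any level, so these 2 settings could not change their number. The settings on Gm15772 and on sex markers share cells: every cell low in Gm15772 had Y-linked transcripts and no Xist, and these were 16 of 16 such cells in mutant OHCs, 7 of 7 in mutant IHCs, 25 of 32 in control OHCs and 23 of 26 in control IHCs. With detection at 50 CPM the median number of genes per mutant IHC was 3.5 in place of 6. Of the differences of ratios past 4-fold, 4 values changed sign. Coro2a was 0.48 in cells low in Gm15772, and Cntn1 was -0.89 less the highest cells, -2.50 in Xist cells and -2.03 in cells high in Gm15772; the cause was not tested. Ccer2, within 4-fold at -0.43, was 0.36 without the OHC controls low in Slc26a5, 0.16 in cells with Y-linked transcripts and 0.27 in cells low in Gm15772. Between controls Ccer2 (-0.18) was 0.07 by cell means and 0.38 in Xist cells, and Abhd12b in IHCs (-0.27) was 0.63 in Xist cells and 0.12 in cells high in Gm15772. A gene's genotype ratio was counted as moved, that is outside its counting interval, in 62 of 87 values in OHCs and 58 of 90 in IHCs. Lrrc26, a bound with no interval, was counted as moved where it differed at 2 decimals. The IHC values include the setting on OHC controls low in Slc26a5, which leaves the IHCs as they are. The median rho over pairs ran from 0.13 to 0.17.

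The count of all genes at least 4-fold higher moved more. In OHCs it was 1235, and 1864 in cells with Y-linked transcripts, 2199 in cells low in Gm15772, 2684 at 2-fold, 696 at 8-fold, 4021 without a filter and 342 at 10 CPM. In IHCs it was 1283, and 2032 in cells low in Gm15772, 2734, 763, 3224 and 294 under the same limits and filters. Between controls 1880 genes were apart in either direction, and 3334 in Xist cells, 4138, 1131, 7354 and 420. For the difference of ratios 3165 became 5723 at 2-fold, 6037 without a filter and 571 at 10 CPM. No paired analysis was possible because the numbers shared by the groups only name cells, no label ties cells to animals, and no test was made.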
